A study of Mus musculus with 12 samples.

Results

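Proteasome genes were selected from the deposited expression table by name: a gene was a member if it was annotated as protein coding and its symbol began with Psma, Psmb, Psmc, Psmd, Psme, Psmf or Psmg followed by a number. This gave 50 of the 38887 genes in the table, of which 19 were core genes (Psma and Psmb), 21 were cap genes (Psmc and Psmd) and 10 were activator or assembly genes (Psme, Psmf and Psmg). One of the cap names, Psmc3ip, encodes a partner protein used in meiotic recombination and is no subunit. It was kept in the counts because the name rule admits it. The proteasome is the large protease that degrades proteins tagged with ubiquitin. Its barrel-shaped core is built from rings of alpha (Psma) and beta (Psmb) subunits, and a few of the beta subunits carry the cutting sites. A cap of ATPases (Psmc) and further subunits (Psmd) recognises tagged proteins, unfolds them and feeds them into the core, while Psme proteins form alternative caps and Psmg proteins are chaperones that assemble the core. In neurons the proteasome is known for its part in protein quality control, in synaptic turnover and in the loss of injured axons.

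RNA was measured in 12 libraries from mouse retina, in 4 groups of 3. The Opn4 crush and Opn4 sham groups came from Opn4CreERT/+;R26-tdTomatof/f mice, in which tamoxifen switches on a red reporter in cells that express melanopsin, the intrinsically photosensitive retinal ganglion cells. The HB9 crush and HB9 sham groups came from HB9:GFP mice, in which GFP labels the ON-OFF direction-selective class of ganglion cell. Mice of both lines received tamoxifen at 0.124 mg per g body weight on 5 days from postnatal day 21, underwent optic nerve crush or sham surgery at postnatal day 42, and were sampled 3 days later. Fluorescent cells were picked singly by micropipette after papain digestion, 10 per animal, and each library pooled 30 cells from several animals. Cre and the red reporter were present in the Opn4 line alone, and GFP in the HB9 line alone. These, and any other difference between the mouse lines, cannot be told apart from the cell class. In such pools, fewer cells of a type and less RNA per cell cannot be told apart.

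The values are RPKM, reads scaled by gene length and library total, and the deposited values had been scaled to totals of 15104446 to 28195798 reads. Between 15021 and 16514 genes per library reached 1 RPKM. Opn4 and Eomes, which mark the photosensitive class, summed to 1550 to 1630 RPKM in Opn4 crush and 1580 to 2180 in Opn4 sham libraries, and to 11.3 to 32.2 in HB9 crush and 0.158 to 21.9 in HB9 sham libraries. Mnx1 and Cartpt, which mark the HB9 class and of which Cartpt gave nearly all of the sum, summed to 81.9 to 155 and 134 to 177 RPKM in the Opn4 crush and sham groups, and to 1370 to 6400 and 4750 to 5970 RPKM in the HB9 crush and sham groups. Atf3, a transcription factor induced by axon injury, averaged 59.2 RPKM in Opn4 crush and 0.0824 in Opn4 sham cells, and 540 RPKM in HB9 crush and 0.0868 in HB9 sham cells. On the third principal component, replicate 1 of Opn4 crush (-61.9) and replicate 1 of Opn4 sham (83.8) were far from the other libraries. Transcripts of other retinal cells were present: 15 rod genes summed to 1230 to 3530 RPKM in Opn4 crush, 854 to 2280 in Opn4 sham, 671 to 1070 in HB9 crush and 331 to 1130 in HB9 sham libraries. Log2 changes below are estimates ± standard error (SE) from 1 limma fit of log2(RPKM + 1) over all 12 libraries, they understate the change of genes near 0, and adjusted p is Benjamini-Hochberg adjusted over 18269 tested genes and read against a threshold of 0.05.

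Most proteasome genes were strongly expressed in both cell classes. Of the 50 members, 27 averaged over 100 RPKM across the 12 libraries, and these were 10 core genes, 16 cap genes and 1 activator gene. The same number, 27, stood above 90% of the tested genes. Psmc5, an ATPase of the cap, was the most abundant, at 624, 589 and 622 RPKM in Opn4 crush and 655, 683 and 544 RPKM in Opn4 sham libraries. In HB9 cells it stood at 729, 763 and 644 RPKM after crush and 629, 596 and 474 RPKM after sham. It thus ranked above 98.9% of tested genes, and its Opn4 groups overlapped while its HB9 crush libraries all lay above the HB9 sham libraries. The next most abundant were Psma6, an alpha subunit, with a mean of 368 RPKM over all libraries, and Psmb1, a beta subunit without a cutting site, with 360 RPKM. The standard cutting subunits were lower: Psmb5, which cuts after hydrophobic residues, averaged 227 RPKM, Psmb7, which cuts after basic residues, 179 RPKM, and Psmb6, which cuts after acidic residues, 154 RPKM. Reads were not scarce for the abundant members: each gene over 100 RPKM had at least 1677 recovered reads in every library.

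Specialised members were at the bottom of the range. Psma8, the alpha subunit of the testis, was listed at 0 in all libraries but HB9 crush replicate 3, where it had 1.34 RPKM. Psmb11, the beta subunit of the thymus proteasome, never exceeded 0.216 RPKM. Psmb9, an interferon-inducible cutting subunit, was listed at 0 in all 6 HB9 libraries and reached 2.07 RPKM in Opn4 crush replicate 2 and 0.661 RPKM in Opn4 sham replicate 3. Tap1 overlaps Psmb9 on the opposite strand and had 10.2 and 5.78 RPKM in these libraries. It also had 7.28 RPKM in Opn4 crush replicate 1, where Psmb9 was at 0. No use of strand in the counting is stated, so reads of Psmb9 and Tap1 cannot be told apart. Psma8, Psmb11 and Psmb9 failed the filter of 1 RPKM in at least 3 libraries, so that 47 members were tested: 16 core, 21 cap and 10 activator or assembly genes. Psmb10, the other interferon-inducible cutting subunit apart from Psmb8, was well above them with a mean of 45.2 RPKM. Psme2 (8.83 RPKM) and its near-identical copy Psme2b (64.1 RPKM) can share reads, and their split is uncertain.

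**Figure D1:**
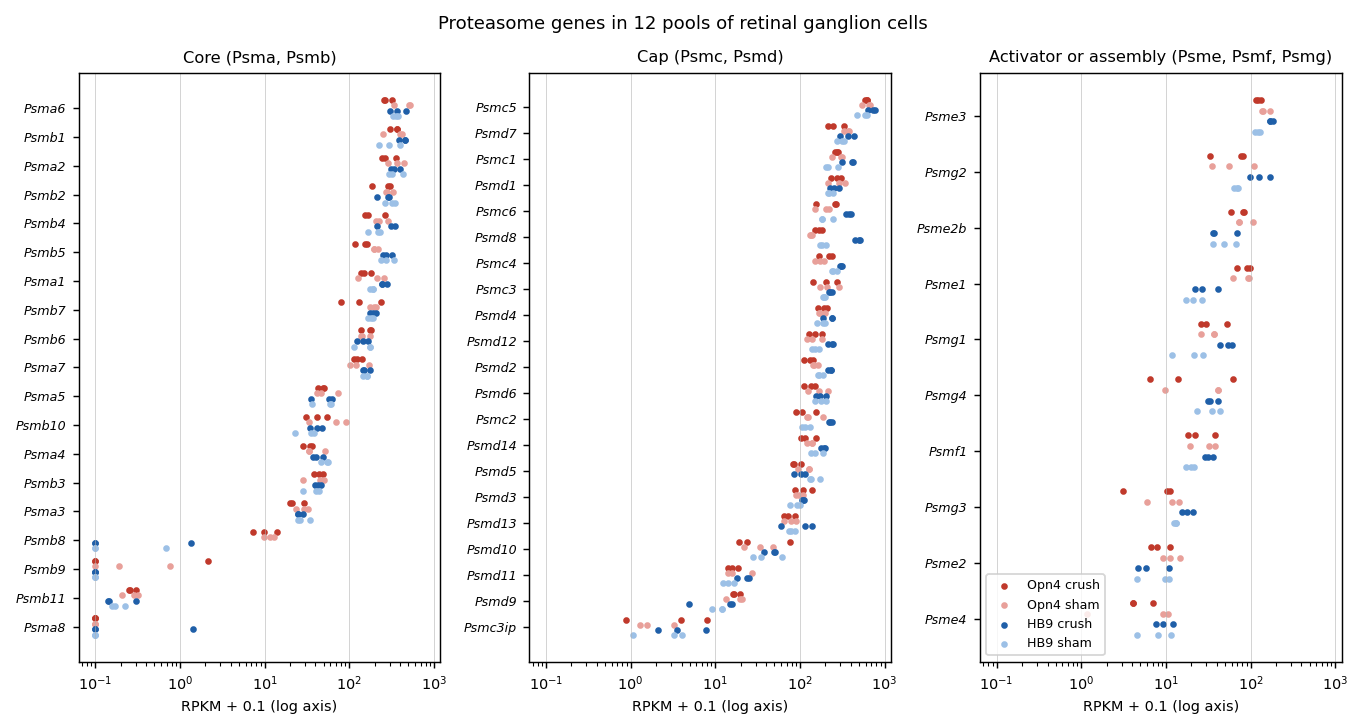
Level of each of the 50 proteasome genes in each of the 12 libraries, as RPKM + 0.1 on a log axis, with 1 point per library coloured by group and genes ordered by mean level within the core, cap and activator or assembly classes. Most core and cap genes sit above 100 RPKM in every group, and Psma8, Psmb9 and Psmb11 lie at the bottom. The Opn4 points of Psmb8 (7.12 to 13.98 RPKM) lie above its HB9 points (0 to 1.26 RPKM). The Opn4 points of Psmb5 (116.5 to 217.0 RPKM) lie below its HB9 points (234.4 to 342.1 RPKM).

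The tested members varied between libraries of a group about as much as genes at the middle levels of the members. Their median within-group SD on the log2 scale was 0.289, against 0.534 for all tested genes and 0.309 for 3470 genes at those levels. The 3470 genes were less abundant, with a median of mean log2 levels of 6.16, against 7.15 for the members. Cap genes had a median within-group SD of 0.219, core genes 0.282 and activator or assembly genes 0.46. Activator and assembly genes include the less abundant members, with Psmg4, a core chaperone, at the largest spread of 1.0. The smallest spread was that of the cap subunit Psmd8, at 0.104.

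The effect of nerve crush was examined first in HB9 cells. There, 5 of 47 members were higher after crush and 0 were lower, against 3.84% of all tested genes called higher, 2.57% called lower and 6.42% called in either direction. The members that rose were 4 cap genes, the lid subunit Psmd8 and the ATPases Psmc2, Psmc6 and Psmc1, and 1 core chaperone, Psmg1. None of the 16 tested core genes passed the threshold, with 1 at an unadjusted p under 0.05 (18.9% of all tested genes). Voom on recovered reads called none of them either, array weights called Psma1 and Psmb1, and the fit of the groups compared only called Psma1. Over all tested genes voom called 1265, array weights 3025 and the groups compared only 1939, against 1172 in the main fit.

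Psmd8 (ENSMUSG00000030591; mm10 chromosome 7, 29174188 to 29180701) helps to build the lid, the part of the cap that removes ubiquitin. It had 517, 499 and 451 RPKM in HB9 crush libraries and 181, 172 and 201 RPKM in HB9 sham libraries. Every crush library was more than double any sham library, and the log2 change was 1.40 ± 0.13 (limma, adjusted p = 5.27e-05). In Opn4 cells Psmd8 had 183, 152 and 167 RPKM after crush and 136, 133 and 140 RPKM after sham. The Opn4 groups did not overlap either, but the change was 0.29 ± 0.13 and did not pass the threshold (limma, adjusted p = 0.347). The difference between these 2 crush effects, Opn4 minus HB9, was itself tested and came to -1.11 ± 0.19 (limma, adjusted p = 0.0185). Psmd8 was the 1 member of 47 with such a difference, against 0.816% of all tested genes. It lost that call without HB9 sham replicate 2 (adjusted p = 0.0693), without HB9 crush replicate 1 (0.0648) or without HB9 crush replicate 2 (0.0545), with log2 differences of -1.06, -1.07 and -1.09.

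The other cap genes that rose are ATPases of the ring that unfolds substrates. Psmc2 (ENSMUSG00000028932; chromosome 5, 21785283 to 21803787) had 226, 220 and 237 RPKM in HB9 crush libraries and 132, 115 and 106 RPKM in HB9 sham libraries. These groups lay far apart, with a log2 change of 0.96 ± 0.22 (limma, adjusted p = 0.0192). Psmc6 (ENSMUSG00000021832; chromosome 14, 45329824 to 45349071) had 399, 348 and 379 RPKM after crush and 183, 248 and 184 RPKM after sham, a change of 0.88 ± 0.22 (limma, adjusted p = 0.0314). Psmc1 (ENSMUSG00000021178; chromosome 12, 100110186 to 100123364) had 417, 422 and 316 RPKM after crush and 214, 205 and 281 RPKM after sham, a change of 0.72 ± 0.17 (limma, adjusted p = 0.0238). In both genes 1 sham library, replicate 2 for Psmc6 and replicate 3 for Psmc1, came closest to the crush libraries without overlapping them. The other ATPases, Psmc3, Psmc4 and Psmc5, had log2 changes of 0.27, 0.26 and 0.34 that did not pass the threshold, although their crush libraries all lay above their sham libraries. In Opn4 cells, Psmc2 had 90.7, 153 and 106 RPKM after crush and 187, 121 and 125 RPKM after sham, with overlapping groups.

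Psmg1 (ENSMUSG00000022913; chromosome 16, 95979933 to 95990960) encodes a chaperone that assembles the alpha ring. It had 60.4, 54.7 and 43.3 RPKM in HB9 crush libraries and 27.6, 21.3 and 11.6 RPKM in HB9 sham libraries. The groups did not overlap, and the log2 change was 1.41 ± 0.34 (limma, adjusted p = 0.0276). Its partner Psmg2 had 127, 99.0 and 169 RPKM after crush and 71.2, 63.4 and 68.3 RPKM after sham, and its change of 0.92 ± 0.40 did not pass the threshold (limma, adjusted p = 0.232). Psmg3 and Psmg4, which form a second pair of core chaperones, had changes of 0.45 ± 0.45 and 0.09 ± 0.68.

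The 250 bases before the RefSeq start of these 5 genes are printed because the genes were called together in HB9 cells after crush. They are given 5′ to 3′ on the gene's strand from RefSeq on build GRCm38.p6, with motif matches in capitals.
Psmd8, chr7:29180674-29180923, minus strand: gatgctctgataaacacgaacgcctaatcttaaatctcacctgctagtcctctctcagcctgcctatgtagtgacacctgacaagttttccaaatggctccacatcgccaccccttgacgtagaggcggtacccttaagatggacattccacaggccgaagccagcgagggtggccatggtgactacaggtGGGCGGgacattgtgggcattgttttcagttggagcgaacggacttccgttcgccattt
Psmc1, chr12:100109952-100110201, plus strand: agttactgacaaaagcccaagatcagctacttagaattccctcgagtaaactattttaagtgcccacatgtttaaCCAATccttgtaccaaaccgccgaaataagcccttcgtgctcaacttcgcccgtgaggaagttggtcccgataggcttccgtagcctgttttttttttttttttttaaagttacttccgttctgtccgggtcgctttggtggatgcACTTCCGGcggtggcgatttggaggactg
Psmc2, chr5:21785025-21785274, plus strand: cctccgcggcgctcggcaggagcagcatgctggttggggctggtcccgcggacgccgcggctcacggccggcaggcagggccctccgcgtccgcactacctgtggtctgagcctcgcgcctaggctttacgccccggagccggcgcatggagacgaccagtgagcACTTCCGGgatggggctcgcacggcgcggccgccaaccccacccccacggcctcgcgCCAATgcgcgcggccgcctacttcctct
Psmc6, chr14:45329574-45329823, plus strand: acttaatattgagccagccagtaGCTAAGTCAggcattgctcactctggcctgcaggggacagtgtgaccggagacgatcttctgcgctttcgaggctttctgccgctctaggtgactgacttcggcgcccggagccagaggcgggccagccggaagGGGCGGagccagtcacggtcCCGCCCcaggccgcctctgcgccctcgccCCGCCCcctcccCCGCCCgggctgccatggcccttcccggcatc
Psmg1, chr16:95990961-95991210, minus strand: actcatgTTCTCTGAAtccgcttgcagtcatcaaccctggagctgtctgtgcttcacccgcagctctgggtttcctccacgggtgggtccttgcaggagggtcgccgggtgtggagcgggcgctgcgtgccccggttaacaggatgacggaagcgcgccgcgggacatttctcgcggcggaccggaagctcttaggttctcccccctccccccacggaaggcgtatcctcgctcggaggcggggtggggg
The search covered 42 of the 50 members with a RefSeq promoter and 32851 windows of the same length, on both strands. Capitals mark a GC box (GGGCGG) in Psmd8, a CCAAT box (CCAAT) and an ETS site (CCGGAAGT, here on the opposite strand) in both Psmc1 and Psmc2, an antioxidant response element (TGACNNNGC, opposite strand) and 4 GC boxes in Psmc6, and a STAT site (TTCNNNGAA) in Psmg1. No motif was found in all 5. The ETS site was in 5 of 42 member windows (Psmc1, Psmc2, Psmd6, Psmd12 and Psme4), against 2.88% of all windows. The GC box was in 22 of 42 members, against 32.7% of all windows, and the CCAAT box in 15 of 42, against 33.8%. The antioxidant response element, the type of element bound by the factor that raises proteasome genes when the protease is blocked, was in 5 members (Psmb5, Psmb6, Psmc6, Psmd9 and Psmd12), against 10.2% of all windows. The AP-1 site (TGANTCA) was in 1 member, Psmd9, against 6.75% of all windows, and no match overlapped an antioxidant match. The STAT site was in 2 members, Psmb8 and Psmg1, against 7.02% of all windows, and the interferon-stimulated response element (GAAA and GAAA again after any 2 bases) in 3, Psmb3, Psmd4 and Psmd9, against 2.98%. A match is a run of letters in this window and shows no binding.

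**Figure D2:**
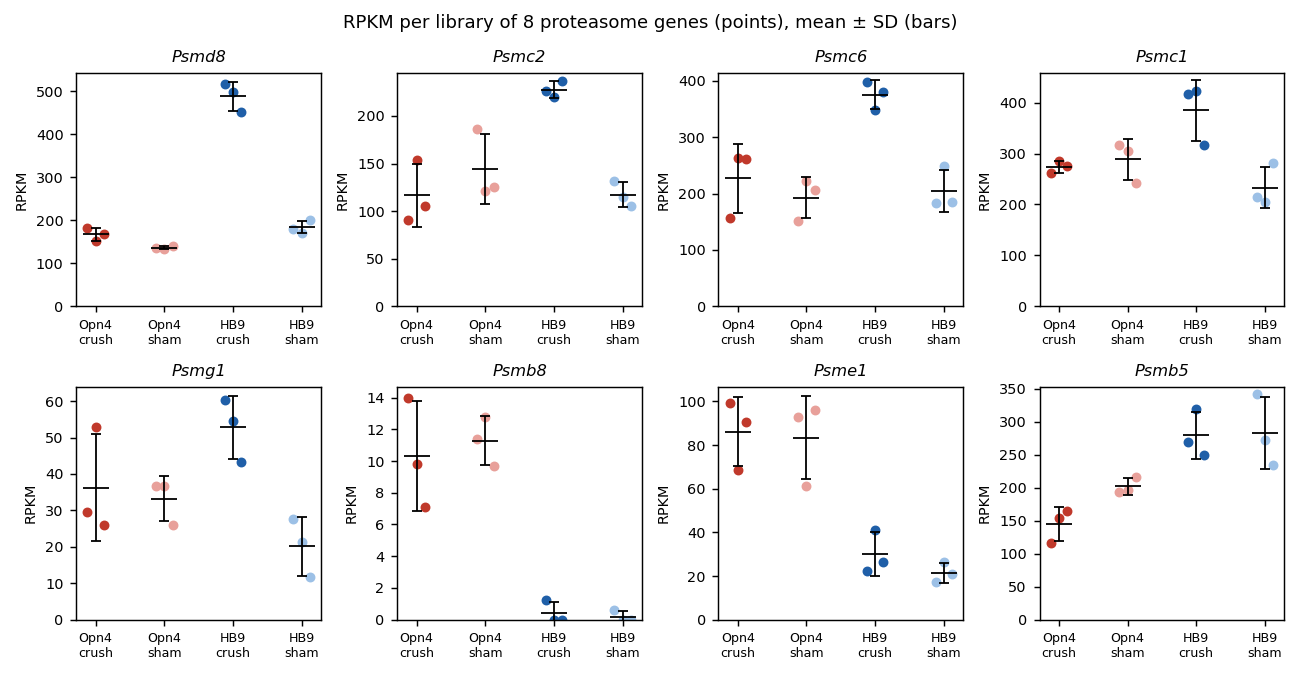
RPKM of 8 proteasome genes in every library (points) with group mean ± SD (bars), in Opn4 crush, Opn4 sham, HB9 crush and HB9 sham libraries. For Psmd8, Psmc2, Psmc6, Psmc1 and Psmg1 all HB9 crush points lie above all HB9 sham points, whereas for Psmb8 and Psme1 all Opn4 points lie above all HB9 points.

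The classes of members were then set side by side in HB9 cells, with no test of cap against core genes. The median log2 change was 0.29 for 21 cap genes, 0.04 for 16 core genes and 0.44 for 10 activator or assembly genes, beside 0.11 for all tested genes. Of the 21 cap genes 18 had a positive change, as had 10 of 16 core genes, and for 11 of 21 all crush libraries lay above all sham libraries, as did those of 1 of 16 core genes and 5 of 10 activator or assembly genes. This separation was found in 19% of all tested genes. Summed over the class, cap genes had 4853, 5083 and 4449 RPKM in HB9 crush and 3582, 3534 and 3424 RPKM in HB9 sham libraries, with no overlap. Core genes summed to 3010, 3274 and 2566 RPKM in HB9 crush and 3078, 2682 and 2308 RPKM in HB9 sham libraries, with overlap. The ratio of cap to core was 1.63 ± 0.0917 in HB9 crush and 1.32 ± 0.16 in HB9 sham libraries (SD, n = 3).

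Some members ran the other way or showed no change past the threshold. Psmd5, a chaperone that holds part of the cap base before it joins the core, had 104, 114 and 86.1 RPKM in HB9 crush and 136, 130 and 173 RPKM in HB9 sham libraries. Its crush libraries all lay below its sham libraries, and the log2 change of -0.52 ± 0.19 did not pass the threshold (limma, adjusted p = 0.141, unadjusted p = 0.0172). The base chaperones Psmd9 and Psmd10 had changes of -0.05 ± 0.40 and 0.22 ± 0.47. The ubiquitin receptors Psmd2 and Psmd4 had changes of 0.38 ± 0.15 and 0.28 ± 0.16, and Psmd14, the subunit that cuts ubiquitin off, 0.27 ± 0.18. In the core, the largest positive change was that of Psmb1, 0.53 ± 0.23, and the most negative that of Psma4, -0.31 ± 0.23. The cutting subunits Psmb5, Psmb6 and Psmb7 had changes of -0.01 ± 0.18, -0.08 ± 0.20 and 0.10 ± 0.29. Psme3, the subunit of a nuclear activator, had 170, 172 and 182 RPKM in HB9 crush and 122, 113 and 128 RPKM in HB9 sham libraries, and its change of 0.52 ± 0.15 lay at the threshold (limma, adjusted p = 0.0503). It was called with a pseudocount of 0.1, no filter, a filter of 5 RPKM, the groups compared only, array weights and voom, and without replicate 1 of Opn4 sham or of Opn4 crush. Psme4, which forms another nuclear activator, and Psmf1, a proteasome-binding inhibitor, had changes of 0.30 ± 0.61 and 0.71 ± 0.32.

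The HB9 crush calls depended on single libraries, on the filter and on scaling. With no filter on low values Psmc6 and Psmg1 were not called. Without HB9 sham replicate 1 the call remained for 3 of the 5 genes, without HB9 sham replicate 2 or 3 or HB9 crush replicate 3 for 2, and without HB9 crush replicate 1 or 2 for Psmd8 only. Calls over all tested genes also fell without 1 of the HB9 libraries, to 645 to 777, from 1172. With median-ratio scaling, which moved the median of all genes to 0.03 and the split of calls over all genes to 611 higher and 671 lower, from 702 and 470, Psmc1 was not called and the core median was -0.07, while the cap median was 0.18. With quantile normalization (median of all genes -0.01, split 600 and 605) all 5 were called and the cap median was 0.21. Marker sums moved with the crush in HB9 cells: 10 ganglion cell genes summed to 5140 to 5820 RPKM after crush and 8500 to 9540 after sham, 8 Muller glia and astrocyte genes to 52.4 to 82.8 and 13.2 to 20.2, and 7 amacrine cell genes to 50.5 to 131 and 3.1 to 26.2, with Slc6a9 called at 3.60 (limma, adjusted p = 0.0123). The rod sums overlapped. Nefl, Sncg and Nefm gave most of the ganglion cell sum. Mean levels of Slc17a6 (870 RPKM after crush, 862 after sham) and Pou4f3 (28.3 and 20.1 RPKM) were not lower. Of the 10 ganglion cell genes 3 were called lower and 0 higher, against 2.57% and 3.84% of all tested genes. Rlbp1, Vim and Glul gave most of the glial sum, and Aqp4 and Sox9 were listed at 0 in every HB9 library. Of the class markers, Mnx1, the gene HB9 is named for, had 2.38 ± 1.09 RPKM in HB9 crush and 32.2 ± 10.48 RPKM in HB9 sham libraries (SD, n = 3), a change of -3.30 (limma, adjusted p = 0.000471). Eomes, a marker of the other class, had 8.08 ± 1.29 and 0.958 ± 0.866 RPKM, a change of 2.32 (limma, adjusted p = 0.000837). Cartpt and Opn4, the other markers of these classes, overlapped between crush and sham libraries and were not called. Their changes were -0.53 and 1.12 (limma, adjusted p = 0.619 and 0.588). The 10 microglia and macrophage genes summed to 5.42 to 5.69 RPKM after crush and 3.42 to 4.22 after sham, with C1qb, C1qc and Tmem119 listed at 0 in every library. With the rod level as a covariate, all 5 genes were called. The part of glial, microglial and amacrine RNA and of the class markers in these changes was not tested.

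In Opn4 cells no member passed the threshold after crush, by limma or by voom on recovered reads, against 1.11% of all tested genes. Over all tested genes the Opn4 crush calls fell from 203 to 13 with the groups compared only and to 87 with array weights. The HB9 crush calls rose from 1172 to 1939 and 3025 in these fits, so the classes differed in how readily genes were called. At an unadjusted p under 0.05 there were 4 of 47, against 14.3% of all tested genes. The median log2 change of the 47 members was -0.13, beside -0.02 for all tested genes, and 35 members had a negative change. Core genes were the most one-sided: 14 of 16 had a negative change, with a median of -0.25, whereas the cap median was -0.06 and the activator or assembly median -0.17. Psma6 had 258, 320 and 265 RPKM in Opn4 crush and 504, 342 and 525 RPKM in Opn4 sham libraries. The groups were separate, with sham replicate 2 close to the crush libraries, and the change of -0.68 ± 0.19 did not pass the threshold (limma, adjusted p = 0.117). Without Opn4 sham replicate 2 the change was -0.88 (adjusted p = 0.0453). Psmb5 had 117, 154 and 164 RPKM after crush and 194, 197 and 217 RPKM after sham, a change of -0.49 ± 0.18 (limma, adjusted p = 0.233). The lid subunit Psmd7 had 212, 335 and 244 RPKM after crush and 376, 337 and 369 RPKM after sham, a change of -0.48 ± 0.18 (limma, adjusted p = 0.263). At the other end, Psmb6 had the largest positive change of the core, 0.12 ± 0.20, and Psmc3ip that of the cap names, 0.60 ± 0.64, from levels of 0.794 to 7.96 RPKM after crush and 1.18 to 3.21 RPKM after sham. Psmg4 had the lowest change of the activator or assembly genes, -0.47 ± 0.68, and Psmg1 the highest, 0.07 ± 0.34.

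**Figure D3:**
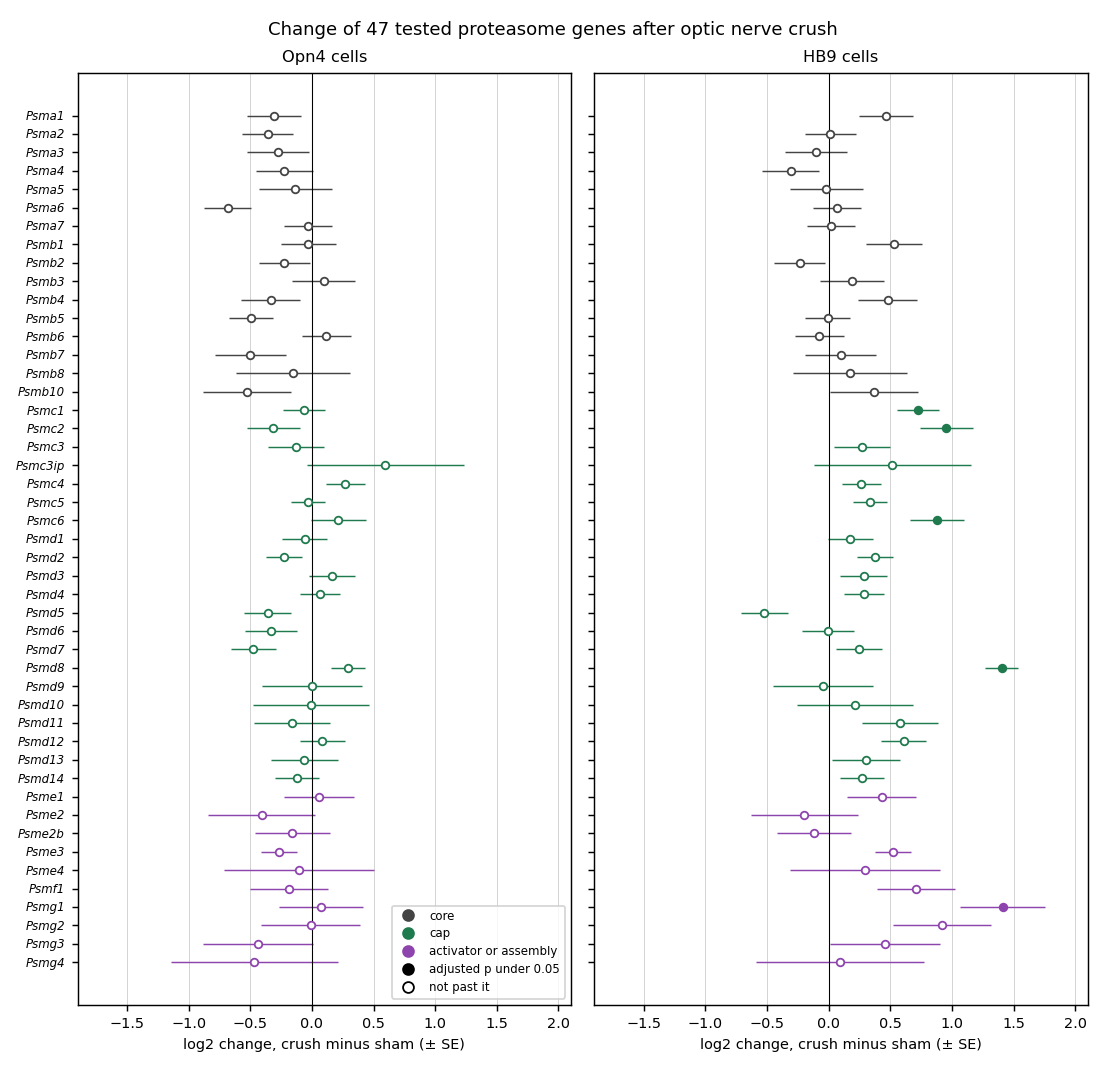
Log2 change of the 47 tested proteasome genes after nerve crush (crush minus sham, points, with bars of ± 1 SE) in Opn4 cells on the left and HB9 cells on the right, coloured by class and filled where the adjusted p is under 0.05. In HB9 cells Psmd8, Psmc1, Psmc2, Psmc6 and Psmg1 are filled and cap genes lie mostly right of 0, and in Opn4 cells no gene is filled and core genes lie mostly left of 0.

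Summed core genes had 1948, 2701 and 2269 RPKM in Opn4 crush and 3023, 2327 and 3158 RPKM in Opn4 sham libraries, and summed cap genes 3154, 3647 and 3491 RPKM and 3777, 3516 and 3437 RPKM. Both sums overlapped between the groups. The ratio of cap to core was 1.503 ± 0.139 after crush and 1.28 ± 0.212 after sham (SD, n = 3), again with overlap.

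**Figure D4:**
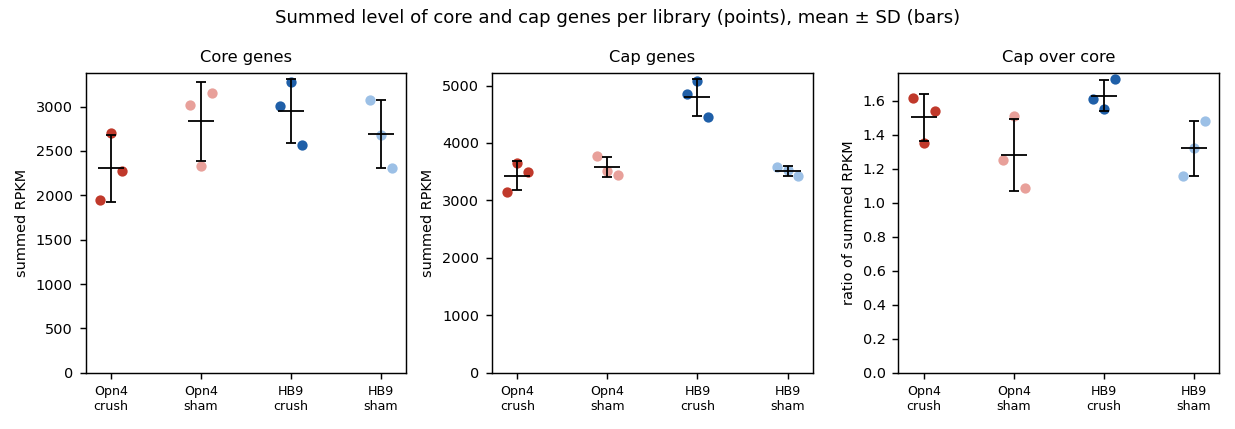
Summed RPKM of core genes, summed RPKM of cap genes and their ratio in every library (points), with group mean ± SD (bars), for Opn4 crush, Opn4 sham, HB9 crush and HB9 sham libraries. The 3 HB9 crush libraries have the highest cap sums, 4449 to 5083 RPKM, and all other libraries lie between 3154 and 3777 RPKM.

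Averaged over both classes, crush raised 1 member, Psmd8, by 0.85 ± 0.10 on the log2 scale (limma, adjusted p = 0.000174), against 6.98% of all tested genes called. Psmc6 came next by p, at 0.55 ± 0.16 (limma, adjusted p = 0.0539), and Psmd5 had a mean change of -0.44 ± 0.13 (limma, adjusted p = 0.0735). Without Opn4 sham replicate 1 Psmd5 was also called, and without Opn4 crush replicate 1 Psmc6 was. Without both of these libraries, which lay apart from the rest, 6 members were called, the others being Psmc2, Psmc4, Psmc6 and Psmd12 as higher and Psmd5 as lower. For the difference between the crush effects, Opn4 minus HB9, 40 of 47 members were negative with a median of -0.39, beside -0.13 for all tested genes. Scaling moved the median of all genes to -0.02 (median-ratio) or 0.01 (quantile), that of the members to -0.27 or -0.38 with 36 or 35 negative, and the split of calls over all genes to 76 higher and 86 lower or 78 and 93, from 53 and 96. Of the other genes called in HB9 cells, Psmc2 differed between the classes in its crush effect by -1.27 ± 0.31 (limma, adjusted p = 0.0835), Psmc1 by -0.79 ± 0.24 (0.18), Psmc6 by -0.66 ± 0.31 (0.399) and Psmg1 by -1.34 ± 0.49 (0.263), so that their crush effects were not shown to differ. Without Opn4 crush replicate 2 the Psmc2 difference was -1.48 (adjusted p = 0.0319). The 6 comparisons share libraries, and their results are therefore not independent.

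The uninjured classes were then compared. After sham, 3 of 47 members differed, 2 higher and 1 lower in Opn4 cells, against 5.82% of all tested genes called higher, 5.93% called lower and 11.8% called in either direction. The members that were higher, Psmb8 and Psme1, belong to the interferon-inducible form of the proteasome, and the lower one was the ATPase Psmc4. Psmd8 was just short of the threshold, with lower values in all Opn4 sham than in all HB9 sham libraries and a difference of -0.43 ± 0.13 (limma, adjusted p = 0.0557), and it was called with a pseudocount of 0.1, no filter, a filter of 5 RPKM, median-ratio scaling, array weights and without Opn4 crush replicate 1. Psmb8 (ENSMUSG00000024338; chromosome 17, 34197721 to 34201454) is the inducible counterpart of Psmb5 and cuts proteins into peptides for presentation on class I molecules. It had 11.4, 12.8 and 9.71 RPKM in Opn4 sham libraries, against 0.586, 0 and 0 RPKM in HB9 sham libraries. The log2 difference was 3.39 ± 0.46 (limma, adjusted p = 0.000412), and with a pseudocount of 0.1 or with voom on recovered reads it was 5.9 or 8.33. After crush it had 13.98, 9.84 and 7.12 RPKM in Opn4 cells and 1.26, 0 and 0 RPKM in HB9 cells, a difference of 3.06 ± 0.46 (limma, adjusted p = 0.000947). Crush itself did not change it past the threshold in either class. An antisense gene, Gm20496, overlaps Psmb8 and was at 12.5 to 17.3 and 13.9 to 16.4 RPKM in Opn4 crush and sham libraries, and at 0 to 1.93 and 0.49 to 2.15 RPKM in HB9 crush and sham libraries. Since no use of strand in the counting is stated, the 2 genes' reads cannot be told apart.

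Psme1 (ENSMUSG00000022216; chromosome 14, 55578123 to 55581529) encodes a subunit of the activator ring that opens the core without ubiquitin. It had 93.0, 61.4 and 95.9 RPKM in Opn4 sham libraries and 17.4, 26.4 and 20.9 RPKM in HB9 sham libraries. The log2 difference was 1.90 ± 0.28 (limma, adjusted p = 0.000794). After crush it had 99.4, 68.6 and 90.5 RPKM in Opn4 cells and 22.1, 41.3 and 26.5 RPKM in HB9 cells, a difference of 1.52 ± 0.28 (limma, adjusted p = 0.00378). All Opn4 libraries lay above all HB9 libraries. Emc9, a gene on the opposite strand that overlaps Psme1, ranged from 13.0 to 53.5 RPKM in Opn4 libraries and from 28.8 to 43.6 RPKM in HB9 libraries. Other members of the inducible form did not pass the threshold after sham: Psmb10 differed by 0.91 ± 0.35 (limma, adjusted p = 0.126), Psme2 by 0.49 ± 0.43 (0.544) and its copy Psme2b by 0.74 ± 0.30 (0.145). Without Opn4 sham replicate 2 Psmb10 was called, at 1.32 (adjusted p = 0.0188).

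Psmc4 had 192, 174 and 152 RPKM in Opn4 sham libraries and 272, 242 and 247 RPKM in HB9 sham libraries. The groups did not overlap, and the difference was -0.56 ± 0.16 (limma, adjusted p = 0.0373). The call was lost without Opn4 sham replicate 2 or 3, or without any 1 of the 6 HB9 libraries, with adjusted p up to 0.18. It was also lost with the rod level as a covariate, while Psmb8 and Psme1 were called there with differences of 2.72 and 2.02. This covariate lowered the calls over all tested genes to 980, from 2148. The mean log2 level of the rod genes was 4.7 to 6.27 in Opn4 sham and 3.31 to 5.07 in HB9 sham libraries. The covariate thus moved in part with the class.

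After crush the classes differed in more members: 12 of 47, of which 2 were higher and 10 lower in Opn4 cells, against 12.7% of all tested genes called, 5.12% called higher and 7.6% called lower. The higher ones were again Psmb8 and Psme1. The lower ones were 7 cap genes (Psmd8, Psmc2, Psmd2, Psmc6, Psmd14, Psmd12 and Psmc4), 2 core genes (Psmb5 and Psma1) and the activator gene Psme3. Psmd8 differed by -1.54 ± 0.13 (limma, adjusted p = 1.74e-05), with the values given above. Psmb5 had 117, 154 and 164 RPKM in Opn4 crush and 269, 319 and 250 RPKM in HB9 crush libraries. Its difference was -0.95 ± 0.18 (limma, adjusted p = 0.00447), and a microRNA gene, Mir686, lies within it on the same strand and can take the same reads. Psmc2 differed by -0.99 ± 0.22 (limma, adjusted p = 0.00995). Psmd2, a scaffold of the cap that also binds ubiquitin, had 113, 133 and 144 RPKM in Opn4 crush and 231, 232 and 213 RPKM in HB9 crush libraries. Its difference was -0.80 ± 0.15 (limma, adjusted p = 0.00343), with no overlap.

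The remaining 6 lower genes differed by -0.76 (Psmc6), -0.72 (Psma1), -0.63 (Psmd14), -0.61 (Psmd12), -0.55 (Psmc4) and -0.50 (Psme3), with limma adjusted p from 0.0354 to 0.0492, and the libraries of each lay lower in Opn4 crush without overlap, a separation found in 17.6% of all tested genes. Over all members the median difference was -0.41, beside -0.12 for all tested genes. The most negative difference that did not pass was that of the core chaperone Psmg3, -1.21 ± 0.45 (limma, adjusted p = 0.0993). Gm26938 overlaps Psmg3 on the same strand and can take the same reads. It had 2.87 to 14.5 RPKM in Opn4 crush and 19.2 to 27.4 RPKM in HB9 crush libraries. The largest positive differences that did not pass were those of Psme2b, 0.70 ± 0.30 (limma, adjusted p = 0.158), and Psmd9, 0.67 ± 0.40 (0.322).

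**Figure D5:**
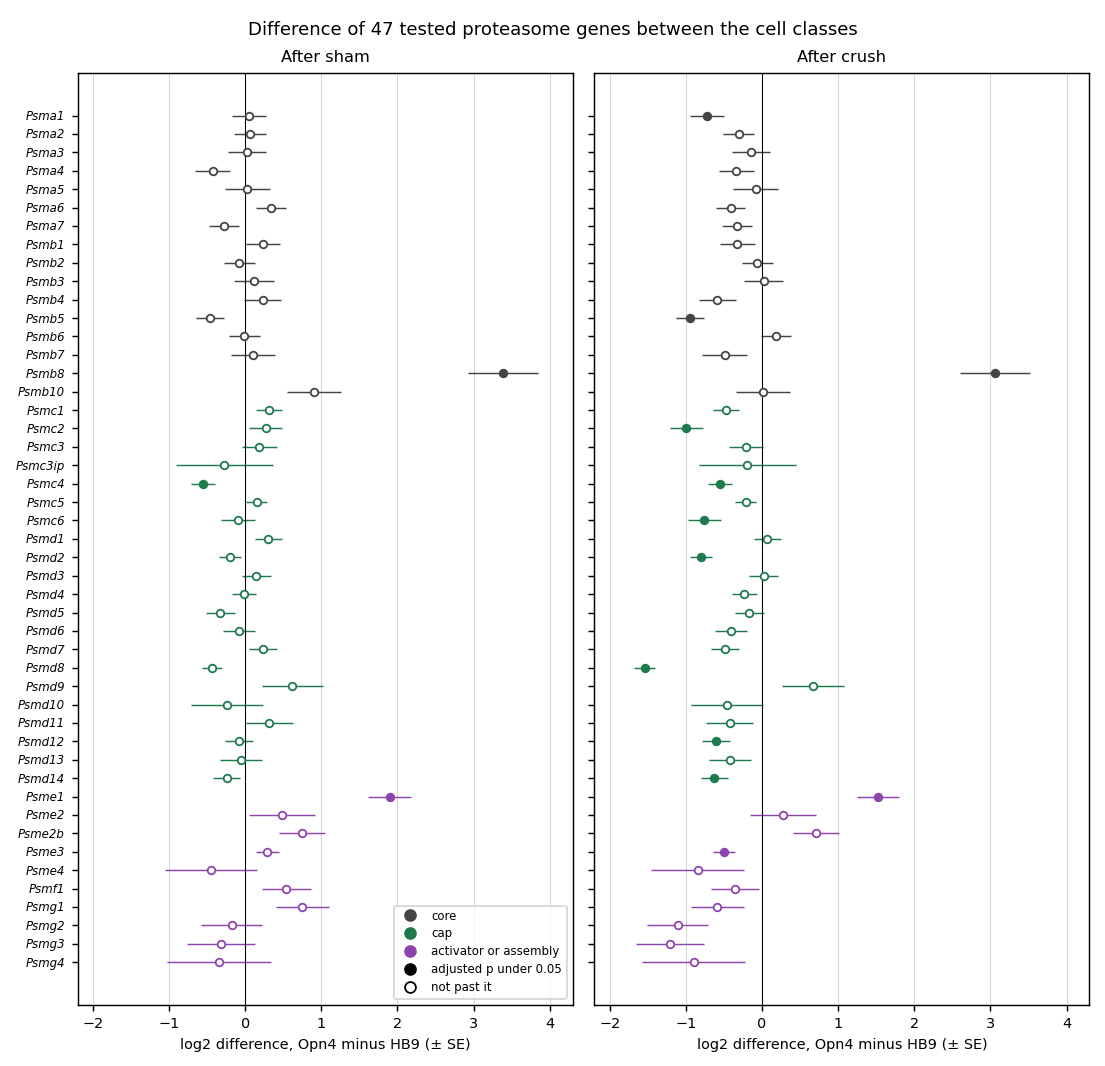
Log2 difference between the cell classes (Opn4 minus HB9, points, with bars of ± 1 SE) of the 47 tested proteasome genes, after sham on the left and after crush on the right, coloured by class of gene and filled where the adjusted p is under 0.05. Psmb8 and Psme1 stand far right of 0 in both panels, and 10 filled genes lie left of 0 after crush, against 1, Psmc4, after sham.

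These 6 weaker calls after crush depended on the processing: each was lost with median-ratio scaling and with quantile normalization, which left Psmb8, Psme1, Psmd8, Psmc2, Psmb5 and Psmd2, and which moved the split over all genes to 1042 higher and 1214 lower or to 1160 and 1185, from 936 and 1389. Leaving out Opn4 crush replicate 1, HB9 crush replicate 1 or HB9 crush replicate 2 also left those 6, and leaving out HB9 crush replicate 3, HB9 sham replicate 2, HB9 sham replicate 3 or HB9 sham replicate 1 left 6, 7, 7 and 8 of the 12. Leaving out Opn4 crush replicate 3 left 9, Opn4 crush replicate 2 left 10, and Opn4 sham replicate 2 or 3 left 11. The rod genes were more abundant in Opn4 than in HB9 libraries, with sums of 1230 to 3530 and 671 to 1070 RPKM after crush. With the rod level as a covariate the same 6 genes were called, together with Psmg2. This covariate lowered the calls over all tested genes to 1007, from 2325. The mean log2 level of the rod genes was 5.32 to 6.72 in Opn4 crush and 4.18 to 4.98 in HB9 crush libraries. The microglia and macrophage genes summed to 0.922 to 14.8 RPKM in Opn4 crush and 5.42 to 5.69 RPKM in HB9 crush libraries, and to 2.89 to 6.01 and 3.42 to 4.22 RPKM in the sham groups of these classes, and the part of microglial RNA in the Psmb8 and Psme1 differences was not tested. Muller glia and astrocyte genes summed to 42.2 to 70.4 RPKM in Opn4 sham and 13.2 to 20.2 RPKM in HB9 sham libraries, with Vim called, and to 41.3 to 265 and 52.4 to 82.8 RPKM in the crush groups. Amacrine genes summed to 21.1 to 102 RPKM in Opn4 sham and 3.1 to 26.2 RPKM in HB9 sham libraries, with Gad2 and Chat called higher. They summed to 47.4 to 63.5 and 50.5 to 131 RPKM in the crush groups, with Gad2 called higher. Other amacrine genes ran the other way after crush without a call. Slc6a9 had 5.07 to 14.1 RPKM in Opn4 crush and 35.7 to 42.8 RPKM in HB9 crush libraries, and Gad1 differed by -2.47 (limma, adjusted p = 0.324). The part of glial and amacrine RNA was not tested either.

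Genes that work with the proteasome were read from lists chosen by function. With the rod covariate, class differences called over all tested genes fell to 980 after sham and 1007 after crush, from 2148 and 2325. Of 12 symbols listed for parts, assembly and processing factors that carry no Psm name, 9 were in the table and tested. The list held both an older and a newer symbol for Shfm1 (Sem1) and for AI314180 (Ecpas). None passed the threshold after crush in either class by limma or by voom. By limma 1.11% of all tested genes were called in Opn4 and 6.42% in HB9 cells. At an unadjusted p under 0.05 there were 2 in Opn4 and 1 in HB9 cells, against 14.3% and 18.9% of all tested genes. The median changes of the 9 were -0.21 in Opn4 and 0.09 in HB9 cells. After sham 1 of the 9, Akirin2, which carries proteasomes into the nucleus, was higher in Opn4 cells, against 5.82% of all tested genes. It had 105 ± 21.02 RPKM in Opn4 and 55.4 ± 19.5 RPKM in HB9 cells (SD, n = 3). Its difference was 0.95 ± 0.25 (limma, adjusted p = 0.0284), and the call was lost with the rod covariate and without Opn4 sham replicate 1 or 3 or HB9 sham replicate 2 or 3, among others (adjusted p up to 0.318 over the alternatives). After crush 3 of the 9 were lower in Opn4 cells, against 7.6% of all tested genes. They were Ublcp1, a phosphatase that acts on the proteasome, by -1.904, the deubiquitinase Uchl5 by -0.72 and the core assembly factor Pomp by -0.61 on the log2 scale. Each of these calls was lost without HB9 crush replicate 1, those of Uchl5 and Pomp also without HB9 crush replicate 2 or Opn4 crush replicate 1, and that of Uchl5 also without Opn4 crush replicate 2 and with the rod covariate.

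Of 12 shuttles and regulators of proteasome gene expression, 2 rose after crush in HB9 cells by limma, against 3.84% of all tested genes, and 0 in Opn4 cells, against 1.11% called. In Opn4 cells 4 had an unadjusted p under 0.05, against 14.3% of all tested genes, and voom called 1, Zfand5. Zfand5, a zinc finger protein that stimulates the proteasome, had 252 ± 16.9 RPKM in HB9 crush and 99.2 ± 4.94 RPKM in HB9 sham cells (SD, n = 3), a log2 change of 1.34 ± 0.14 (limma, adjusted p = 0.000113). In Opn4 cells it had 130 ± 5.77 RPKM after crush and 86.7 ± 6.81 RPKM after sham. Zfand2b, a related protein of the endoplasmic reticulum, had 88.1 ± 5.04 RPKM in HB9 crush and 28.7 ± 4.60 RPKM in HB9 sham cells (SD, n = 3), a change of 1.60 ± 0.29 (limma, adjusted p = 0.00543). Averaged over both classes the protease Ddi2 was also called, with 1.31 ± 0.30 (limma, adjusted p = 0.0206). This call was lost without HB9 sham replicate 2 or HB9 crush replicate 1 or 2 (adjusted p up to 0.061). Ddi2 cleaves Nfe2l1, the factor that raises proteasome genes when the protease is blocked. Nfe2l1 itself had 238 ± 44.2 RPKM in HB9 crush and 162 ± 36.0 RPKM in HB9 sham cells, and was not called after crush in either class. After crush 4 of the 12 were lower in Opn4 than in HB9 cells, against 7.6% of all tested genes: Zfand2a (-2.08), Zfand2b (-1.05), Zfand5 (-0.95) and Nfe2l1 (-0.87). Zfand2a and Zfand5 were called under every alternative run, whereas Zfand2b and Nfe2l1 lost the call with the rod covariate and without any 1 of the HB9 crush libraries, Zfand2b also without Opn4 crush replicate 3, and Nfe2l1 also with either rescaling and without Opn4 crush replicate 1 or 2, Opn4 sham replicate 3 or HB9 sham replicate 2. After sham none of the 12 was called by limma, against 11.8% of all tested genes, and voom called 1, Zfand2a. At an unadjusted p under 0.05 there were 2, against 4519 of all 18269 tested genes.

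Of 7 genes for ubiquitin and its activation, none was called after crush in either class by limma or by voom. By limma 1.11% of all tested genes were called in Opn4 and 6.42% in HB9 cells. At an unadjusted p under 0.05 there was 1 in each class, against 14.3% and 18.9% of all tested genes. The deubiquitinase Uchl1, abundant in neurons, was the 1 gene of the list that differed between the classes after sham, against 11.8% of all tested genes. None differed after crush, against 12.7%. Uchl1 had 1913 ± 330 RPKM in Opn4 sham and 1085 ± 131 RPKM in HB9 sham cells (SD, n = 3). The difference of 0.81 ± 0.17 (limma, adjusted p = 0.00674) was not called with the rod covariate (adjusted p = 0.121).

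Genes of class I antigen processing, which use the peptides made by Psmb8 and its relatives, were higher in Opn4 cells in several cases. Of 9 tested genes, 4 were higher in Opn4 than in HB9 cells after sham and 0 were lower, against 5.82% and 5.93% of all tested genes. They were the class I heavy chains H2-K1 and H2-D1 by 3.07 and 0.91, their light chain B2m by 2.28 and the peptide-trimming enzyme Erap1 by 2.06 on the log2 scale. Of these, H2-K1 and H2-D1 were called under every alternative run, while B2m and Erap1 lost the call with the rod covariate, with voom, and without any 1 of the Opn4 sham libraries, among others (adjusted p up to 0.2 and 0.259). After crush 3 were higher in Opn4 cells, against 5.12% of all tested genes: H2-K1 by 2.70, the peptide transporter subunit Tap2 by 2.51 and H2-D1 by 0.87. Tap2 lost its call with the rod covariate, with voom, and without Opn4 crush replicate 1 or 3 or HB9 crush replicate 1 or 3, among others (adjusted p up to 0.192). Crush raised H2-D1 in both classes, by 0.78 ± 0.16 in Opn4 cells (limma, adjusted p = 0.0325) and 0.82 ± 0.16 in HB9 cells (limma, adjusted p = 0.00677), and raised B2m in HB9 cells by 4.10 ± 0.65 (limma, adjusted p = 0.00204). The H2-D1 call in Opn4 cells was lost without Opn4 sham replicate 2 or 3, Opn4 crush replicate 2 or 3 or HB9 sham replicate 2, and with array weights, among others (adjusted p up to 0.17). B2m averaged 143 ± 89.2 RPKM in Opn4 crush and 29.8 ± 10.3 RPKM in Opn4 sham cells, against 107 ± 34.0 RPKM in HB9 crush and 7.51 ± 6.49 RPKM in HB9 sham cells (SD, n = 3). The inducible subunits Psmb8 and Psmb10 and the activator gene Psme1 were not called after crush in either class, with changes of -0.16, -0.53 and 0.06 in Opn4 cells and 0.17, 0.37 and 0.43 in HB9 cells.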

How the data were processed

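RNA from 12 pools of picked retinal ganglion cells was sequenced, 3 libraries in each of 4 groups taken from the library titles. The deposited values are RPKM per gene, made by the authors. Per the submitters' processing notes, the tools included TopHat2 2.0.11, edgeR 3.14.0 and Bowtie on build mm10, with no role given for each, and the counting and its use of strand are not given in the sources used here. Within a library, length times RPKM moved in steps worth 1 read (100% of values of short genes within 0.01 read), which gave the scaling totals and whole reads. Recovered reads were 226.7% to 244.2% of those totals, and the reason is not given in the sources used here.

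From these values, log2(RPKM + 1) was computed for genes with at least 1 RPKM in at least 3 libraries (18269), and 1 model with 4 group means was fitted to all 12 libraries (limma 3.58.1 in R 4.3.3, with an intensity trend). Tests were two-sided. The 6 comparisons were the crush effect in each class, their mean, their difference, and the class difference after sham and after crush. Libraries come from pools of different animals, and the labels do not say which animals, so p-values measure the spread between these libraries. Fold changes of genes near 0 are damped by the pseudocount. The fit was also run on simulated data of independent normal values, with known changes set in more abundant genes. Such data hold no outlying libraries, so that run covers neither these nor changes of genes near 0. The members and gene lists were chosen with earlier results of these data known. Named genes were those past the threshold, the extremes of each class, the 3 highest and lowest by level, and a set chosen by role. Promoters were the 250 bases before the RefSeq start (42 members matched and 8 did not). Replicate numbers in the titles were not taken to pair libraries. Alternatives were a pseudocount of 0.1, no filter, a filter of 5 RPKM, median-ratio and quantile scaling, a fit of the groups compared only, array weights, a replicate block, a rod covariate, voom on the recovered reads, and leaving out libraries.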

Additional observations from a re-analysis of the deposited data

Results flagged for a closer look

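The crush effect on Psmd8 differed between the cell classes by the test of the difference itself: the log2 change was 0.29 ± 0.13 in Opn4 cells and 1.40 ± 0.13 in HB9 cells, a difference of -1.11 ± 0.19 (limma, adjusted p = 0.0185). All 3 crush libraries lay above all 3 sham libraries in each class. Adjusted p ranged from 0.00945 to 0.0693 over the alternatives, and the log2 difference from -1.18 to -0.99.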

How the results depend on the processing

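No alternative reversed a call. Of 22 calls on named members, those kept under every alternative run were Psmd8 (HB9 crush, the mean crush effect and the class difference after crush), Psmb8 and Psme1 (both class differences), and Psmb5, Psmc2 and Psmd2 (class difference after crush). For HB9 crush, the 5 calls became 9 with the groups compared only, 11 with array weights and 8 with voom on recovered reads, and 1 to 7 when 1 library was left out. Over all tested genes the HB9 crush calls moved from 1172 to 1939, 3025 and 1265 with these fits, in the same order. They were 645 to 1393 when 1 library was left out. The Opn4 crush count of 0 became 0 to 1 when 1 library was left out. Over all tested genes the Opn4 crush calls were 203, and 139 to 224 when 1 library was left out. They were 13 with the groups compared only and 87 with array weights. For the mean crush effect, the 1 call became 2 with a filter of 5 RPKM, array weights, the replicate block or the rod covariate, 6 without Opn4 sham and Opn4 crush replicate 1, and 1 to 2 when 1 library was left out. Over all tested genes the mean crush calls moved from 1275 to 1335, 1438, 1115, 1117 and 1274 under these settings, in the same order. They were 799 to 1218 when 1 library was left out. For the difference of the crush effects, the 1 call became 0 to 2 when 1 library was left out. Over all tested genes that difference gave 149 calls, and 61 to 156 when 1 library was left out. For the class difference after sham, the 3 calls became 2 to 4 when 1 library was left out. Over all tested genes it gave 2148 calls, and 1348 to 2353 when 1 library was left out. For the class difference after crush, the 12 calls became 6 with median-ratio scaling or quantile normalization, 7 with the groups compared only, the replicate block, the rod covariate or without Opn4 sham and Opn4 crush replicate 1, and 6 to 13 when 1 library was left out. Over all tested genes the calls moved from 2325 to 2256, 2345, 1643, 2152, 1007 and 2413 under these settings, in the same order. They were 1356 to 2619 when 1 library was left out. The cause of these shifts was not tested. The fits that leave libraries out also hold fewer libraries.

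Over all genes same-numbered libraries did not deviate together: over 18 pairs the correlation of deviations from group means was -0.0217 to 0.081, so the numbers were not taken to pair the libraries. The mean log2 level of the rod genes was nevertheless highest in the library numbered 1 and lowest in that numbered 3 in each of the 4 groups (4.98 to 6.72 and 3.31 to 5.32). With the replicate block the calls were 0 for Opn4 crush, 5 for HB9 crush, 1 for the difference, 2 for the class difference after sham and 7 after crush. Depth is ample for abundant members, but Psma8, Psmb9 and Psmb11 were too low to test, and 3 libraries a group limit every comparison.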
